A study of Mus musculus with 10 samples.

Results

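Transitioning microglia (TM) are 1 of the 6 states into which the depositors' annotation of the brain's resident macrophages divides these cells, the others being homeostatic microglia (HM), disease-associated microglia (DAM), interferon-response (IRM), immediate early gene (IEG) and proliferating (PM) microglia. Members were the cells that carry the TM label in that annotation, 2538 of 40547 microglia in 10 libraries, and they were compared with 31953 HM and 901 DAM of the same libraries. CD45+ immune cells were sorted from whole mouse brain in the presence of actinomycin D, an inhibitor of transcription that limits the response to cell isolation, and sequenced with the 3′ chemistry of 10x Genomics. Each library was a pool of 3 mice, so a library is 1 sample and there is 1 library for each genotype and age. The mice came from litters on a C57BL/6 background of a cross of Nlrp3-deficient with APP/PS1 mice. APP/PS1 mice carry transgenes for mutant human APP and mutant human presenilin 1 that are expressed in neurons, and Nlrp3KO mice lack the inflammasome sensor Nlrp3 in every cell of the body throughout life. Non-diseased mice, without the transgenes, were sampled as WT and Nlrp3KO at 3, 6 and 9 months. APP/PS1 and Nlrp3KO APP/PS1 mice were sampled at 3 and 9 months. The annotation numbers 1 batch for each age, and a difference between ages cannot be told apart from one between batches.

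In the healthy brain, microglia express a set of genes for surveying the tissue, among them the purine receptor P2ry12, the fractalkine receptor Cx3cr1 and the surface protein Tmem119. Around amyloid plaques, a fraction of them lowers these genes and takes on the DAM programme of lysosomal, lipid and phagocytic genes. This programme is described as a stepwise change. A first stage, with Apoe, Tyrobp, B2m and Lyz2, does not need the receptor Trem2, and a second stage, with Cst7, Lpl, Axl and Itgax, does. Cells called transitioning or intermediate lie between the HM and the DAM state on this path, hence the interest in which genes of each stage they already carry.

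TM carried the genes that mark them. Apoe encodes the lipid carrier apolipoprotein E and lies on the minus strand of chromosome 7 (chr7:19696109-19699188, GRCm38). Summed over the cells of a library, it was at 3977, 5931, 4842 and 4570 CPM (UMIs of a gene per 1000000 UMIs of the sum, where a UMI or unique molecular identifier marks 1 captured RNA molecule) in TM of WT, Nlrp3KO, APP/PS1 and Nlrp3KO APP/PS1 mice of 3 months. The 6-month WT and Nlrp3KO libraries had 4623 and 3768 CPM, and the 9-month libraries had 4438, 3041, 3683 and 4345 CPM in the order given for 3 months. HM of the same libraries had 236 to 529 CPM (median 355), so that the lowest TM value lay above the highest HM value. Of the 6419 genes compared below, 2.7% were higher in TM without overlap. P2ry12, a receptor for extracellular nucleotides on the minus strand of chromosome 3 (chr3:59216272-59262871, GRCm38), was at 1581 to 2199 CPM (median 1745) in TM and at 2865 to 3877 CPM (median 3077) in HM, without overlap, as 6.89% of the 6419 genes compared below were lower in TM without overlap. P2ry12 was therefore lowered in TM but still among their abundant transcripts.

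Not every TM held both marker genes. To compare cells of unequal depth, every cell was thinned to 1500 UMIs, which left out no cell. Of the TM, 50.5% (exact 95% binomial interval 48.5 to 52.4%, counting error only) then held a UMI of Apoe, with 41.1 to 65.2% in single libraries, against 20.3% of HM and 52.3% of DAM. The shares and means of DAM cells here and below pool APP/PS1 and non-diseased libraries. Apoe was higher in DAM of the APP/PS1 libraries, as given below, so a similar pooled share does not mean a similar level in each. T cells, which do not make Apoe, showed it in 3.44% of cells (median depth 5810 UMIs, against 4970 in TM and 4366 in HM), and a further cell type, the border-associated macrophages (BAM), in 94.4%. P2ry12 was found in 90.5% of TM (89.3 to 91.7%), 98.3% of HM, 89.0% of DAM and 4.69% of T cells. Both genes together were present in 45.1% of TM (43.1 to 47.0%), 19.9% of HM, 43.5% of DAM and 0.188% of T cells. Without thinning, 62.4% of TM held Apoe, 99.3% held P2ry12 and 61.9% held both, and 35.2% of HM held Apoe.

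The spread of Apoe among TM was wide. After thinning, a TM held on average 5.96 Apoe UMIs with quartiles of 0, 1 and 5, whereas the mean was 0.535 in HM and 8.88 in DAM. No Apoe UMI was found in 1257 TM (49.5%, from 34.8 to 58.9% of a library), 1 to 4 in 611 (24.1%) and 5 or more in 670 (26.4%, from 20.6 to 32.8%). From the class without Apoe UMIs to the class with 5 or more, the mean UMIs per cell were 2.92, 2.81 and 2.52 for P2ry12, 1.87, 1.67 and 1.46 for Tmem119, 4.38, 4.56 and 4.79 for Trem2, 1.56, 1.83 and 2.06 for Fcrls, and 1.21, 1.47 and 2.10 for Lyz2. These means pool the cells of libraries that differ in their class shares, and the library means of the first and last class overlapped for P2ry12 (2.40 to 3.59 and 1.92 to 2.97), Tmem119 (1.47 to 2.07 and 1.25 to 1.79), Trem2 (3.797 to 4.77 and 3.85 to 5.29) and Fcrls (1.08 to 2.19 and 1.40 to 2.81). Those of Lyz2 did not (0.706 to 1.58 and 1.84 to 2.60). Ribosomal protein transcripts took 13.3, 13.5 and 14.2% of UMIs in the same classes. These classes are ranges of a count, not kinds of cell, and neighbouring values are described without a test.

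The annotation of the microglia and a second deposited annotation, of all CD45+ cells, did not draw TM in the same place. Of the 2538 TM, 1776 (70.0%) were also TM in the annotation of all cells, 574 (22.6%) were HM there, 119 were DAM and 56 were IRM. The share also called TM there went from 31.9% to 94.3% between libraries and was lower in each 3-month library, at most 59.7%, than in any later one. That annotation names 3600 cells TM, of which 49.3% are TM here and 1651 are HM. Apoe stood at 4602 CPM in TM of both annotations, at 3100 CPM in TM called HM by the other, at 5551 CPM in TM called DAM by the other, and at 646 CPM in HM that only the other annotation calls TM. P2ry12 was at 1719, 2440, 1558 and 2292 CPM in these 4 sets. Results below are given with the cells of both annotations where these move a call.

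Per library there were 198 to 348 TM with 1034690 to 1707077 UMIs in sum, 4463281 to 27688216 UMIs in HM and 160958 to 1659976 UMIs in the 24 to 253 DAM. The level of a low gene in the smallest DAM sums thus rests on few UMIs. TM had a median of 4970 UMIs and 1981 genes per cell, with 4.06% mitochondrial and 13.3% ribosomal protein UMIs, against 2.81% and 8.08% in HM and 3.96% and 11.4% in DAM. A doublet score over 0.5 was given by the authors to 10.1% of TM, 6.35% of HM and 14.4% of DAM. Cell barcodes shared with another library were carried by 34 TM, among them 6 TM whose barcode was also held by a TM of another library.

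TM made up 3.42 to 11.3% of the microglia of a library. The lowest shares were at 3 months, with 3.42% (3.01 to 3.87%) in WT, 4.61% in Nlrp3KO, 6.52% (5.67 to 7.45%) in APP/PS1 and 4.24% in Nlrp3KO APP/PS1 mice. At 6 months they were 9.10% in WT and 8.67% in Nlrp3KO mice. At 9 months they were 8.71% in WT, 7.77% in Nlrp3KO, 10.2% in APP/PS1 and 11.3% (9.84 to 12.9%) in Nlrp3KO APP/PS1 mice. All shares at 6 and 9 months lay above all shares at 3 months, a difference that cannot be told apart from the batch.

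**Figure D1:**
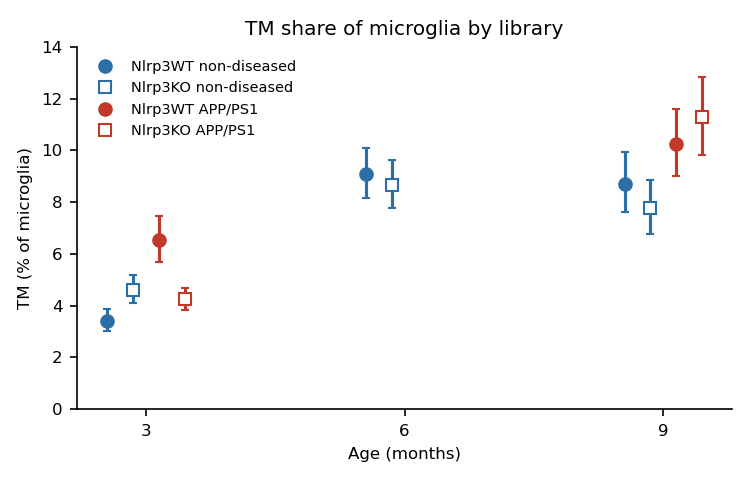
TM as a percentage of the microglia of each library (vertical axis) against age in months, with non-diseased libraries in blue, APP/PS1 libraries in red, Nlrp3WT as filled circles, Nlrp3KO as open squares and 95% exact binomial intervals as bars. The 3-month libraries lie between 3.42 and 6.52% and the libraries of 6 and 9 months between 7.77 and 11.3%.

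With 4 or 5 pairs, the exact test of the TM share between genotypes could not reach a p under 0.05. It cannot decide whether the share differs. Libraries that differ in the APP/PS1 transgenes alone, matched for age and Nlrp3, gave 4 pairs. In these, the share of APP/PS1 minus that of non-diseased mice differed by -0.37 percentage points in Nlrp3KO and +3.10 in Nlrp3WT mice at 3 months, and by +3.51 in Nlrp3KO and +1.53 in Nlrp3WT mice at 9 months, a mean of 1.94 (SD 1.76, n = 4 pairs). The exact two-sided sign-flip permutation test gave p = 0.25, where 4 pairs cannot go below 0.125. Over the 5 pairs of an Nlrp3KO and an Nlrp3WT library the mean difference was -0.286 points (SD 1.44, higher in 2 of 5 pairs, exact sign-flip p = 0.6875, smallest possible 0.0625). The quasi-likelihood test of edgeR on the cell numbers of all states, with the pair as a block, did not pass for TM. It gave log2 fold changes of 0.39 for amyloid (edgeR adjusted p = 0.125) and -0.06 for Nlrp3 (edgeR adjusted p = 0.85). Counted in the annotation of all cells, TM were 1.45 to 23.9% of the microglia.

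TM against HM in the same library was a comparison of states that were drawn from these transcripts, so it is a description and carries no test. Ratios below are log2 ratios of TM to HM after TMM scaling, with a prior count of 2, as the mean ± SD over 10 libraries, for the 6419 genes with at least 20 CPM in TM or HM. Of these, 654 (10.2%) were higher in TM in every library and 597 (9.3%) were lower in every library. Beyond a log2 ratio of 1 there were 49 higher (0.763%) and 16 lower genes (0.249%). Of these 49 genes, 25 had under 20 CPM in HM and were compared through their level in TM alone. Over all 6419 genes, 77 were compared through TM alone and 518 through HM alone. The counts of higher and of lower genes thus depend in part on this filter. The median over all genes was -0.06, and -0.22 when scaled by library size alone. Small ratios depend on that choice, which moves every gene by about 0.16.

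The homeostatic genes were lower in TM, by a modest and even amount. Of 23 such genes, 19 were lower in all 10 libraries and none was higher in all 10, but none passed a log2 ratio of 1, and their median was -0.35. P2ry12 (-0.69 ± 0.06) and the related receptor P2ry13 (-0.54 ± 0.10) were among the genes with the largest differences, together with the Fc receptor-like Fcrls (-0.83 ± 0.25) and the fructose transporter Slc2a5 (-0.72 ± 0.09). Tmem119 was at 968 to 1208 CPM in TM and 1598 to 1856 CPM in HM (-0.40 ± 0.08), Cx3cr1 at 3302 to 4141 against 4588 to 5694 CPM (-0.35 ± 0.05), and Sall1, a transcription factor of microglial identity, at 222 to 318 against 335 to 431 CPM (-0.37 ± 0.09). The groups did not overlap for these 3 genes, which were named among 23, beside 6.89% of all genes compared that were lower in TM without overlap. Csf1r, the receptor for the survival signals of microglia (-0.01), and Cst3 (0.00) were on either side of 0 depending on the scaling.

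First-stage DAM genes were higher in TM without exception, 9 of 9 in all 10 libraries, with a median of 0.89. Apoe had the largest ratio (3.72 ± 0.40). Lyz2, the lysozyme of myeloid cells, was at 905 to 1313 CPM in TM and 304 to 555 CPM in HM (1.60 ± 0.18), and H2-D1, a heavy chain of class I major histocompatibility complex (MHC), at 1439 to 1958 against 524 to 904 CPM (1.48 ± 0.19). These 3 were the first-stage genes past a log2 ratio of 1. The iron store Fth1 (0.94 ± 0.09) and the class I light chain B2m (0.89 ± 0.07) came next, followed by the lysosomal protease Ctsb (0.68 ± 0.07). Tyrobp, the signalling adaptor of Trem2, and the protease inhibitor Timp2 were both at 0.42, and the protease Ctsd was at 0.18 ± 0.09. Ctsd in CPM was 7795 to 9638 in TM and 7872 to 8965 in HM, and its ratio was 0.02 with library size alone.

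Second-stage genes differed in the size of their ratios. Of 11 genes on this list, Clec7a was not analysed here and the other 10 were higher in TM in all 10 libraries, with a median of 0.95. The filter kept 7 of the 10 (median 0.52). The 3 kept genes past a log2 ratio of 1, Axl, Lpl and Cst7, had means under 20 CPM in HM and were kept through TM alone, so they had to differ. The receptor tyrosine kinase Axl had the highest ratio of all genes (3.87 ± 0.61), at 24.4 to 64.2 CPM in TM and 1.84 to 8.67 CPM in HM. The lipase Lpl was at 23.8 to 86.6 CPM against 4.36 to 15.8 CPM (2.60 ± 0.60), and Cst7, an inhibitor of lysosomal proteases, at 27.5 to 122 against 7.82 to 39.1 CPM (2.02 ± 0.39). The Cst7 ranges overlap although each library had more in TM than in HM, and its ratio was 1.20 with the states of the annotation of all cells. Ccl6 (0.52 ± 0.17), Ctsl (0.50 ± 0.07) and Cd9 (0.26 ± 0.12) differed little. Trem2, the lipid receptor on which this stage depends, was at 2626 to 3234 CPM in TM and 2775 to 3336 CPM in HM, with a ratio of 0.14 ± 0.07 that became -0.02 with library size alone. In thinned cells, Axl was found in 5.40% of TM, 0.410% of HM, 10.2% of DAM and 0.751% of T cells. Lpl was found in 6.74%, 1.50%, 16.5% and 0.125%, and Cst7 in 6.15%, 1.70%, 36.3% and 19.5%. At this depth none of these 3 genes was found in more than 6.74% of TM, and for Cst7 the share lay below that of T cells, which make cystatin F themselves.

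**Figure D2:**
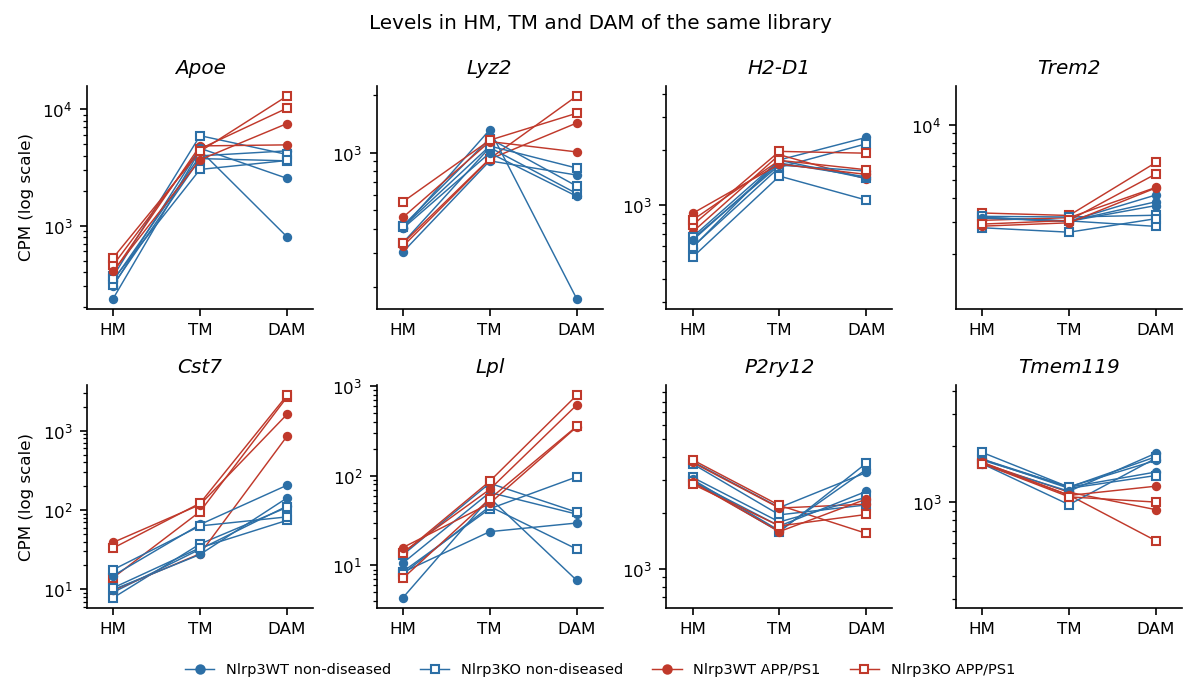
CPM on a log axis of Apoe, Lyz2, H2-D1, Trem2, Cst7, Lpl, P2ry12 and Tmem119 in the summed HM, TM and DAM, with 1 line per library. The lines of Apoe, Lyz2 and H2-D1 climb from HM to TM and spread in DAM, Cst7 and Lpl reach their highest values in DAM of the APP/PS1 libraries, and P2ry12 and Tmem119 are lower in TM than in HM in every library.

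Of 20 further DAM genes, 12 were higher in TM in all 10 libraries, with a median of 0.69. The filter kept 12 of the 20, 1 of them through TM alone (Ccl3), and of those kept 9 were higher in all 10 libraries and 2 passed a log2 ratio of 1, with a median of 0.31. Cd52, a small surface glycoprotein, was at 576 to 833 CPM in TM and 240 to 340 CPM in HM (1.38 ± 0.17), and the chemokine Ccl3 at 16.04 to 56.2 against 6.97 to 26.5 CPM (1.15 ± 0.43). The tetraspanin Cd63 was at 675 to 1023 against 469 to 670 CPM (0.70 ± 0.08). Gpnmb had no UMI in the TM of any library, and Spp1, which encodes osteopontin, had a mean of 5.92 CPM in TM and 189 CPM in DAM.

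Transcripts of most class I genes, whose products present peptides to T cells, were higher in TM. Of the 8 class I genes, 7 were higher in all 10 libraries and 3 passed a log2 ratio of 1, with a median of 0.75. Beside H2-D1 these were H2-K1, at 974 to 1309 CPM in TM and 468 to 801 CPM in HM (1.11 ± 0.19), and H2-Q7, at 52.1 to 92.5 against 6.87 to 31.4 CPM (2.49 ± 0.55). Of the 8 genes, 1 was compared through TM alone and had to differ. H2-Q7 had the lowest level in HM of the 3 genes past a log2 ratio of 1. H2 genes are close copies of each other, so reads can be split between them in counting and the value of a single H2 gene is uncertain. Of the class II genes, Cd74, the invariant chain, was at 45.4 to 128 CPM in TM and 17.7 to 26.2 CPM in HM (2.19 ± 0.49). The class II chains H2-Aa, H2-Eb1 and H2-Ab1 had means of 4.18, 3.63 and 19.6 CPM in TM and of 217, 161 and 357 CPM in DAM.

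Ifi27l2a and Ifitm3, of the list of interferon-response genes, were among the 10 highest ratios over all genes. Of the 12 interferon-response genes, 9 were higher in TM in all 10 libraries, and Ifit1 (0.25), Ifit2 (0.19) and Usp18 (1.20) were not, with a median of 1.04. The filter kept 5 of the 9 (median 0.92), 2 of which passed a log2 ratio of 1, but Ifitm3 and Rtp4 were kept through TM alone. Ifi27l2a was at 173 to 489 CPM in TM and 21.9 to 90.7 CPM in HM (3.14 ± 0.33), and Ifitm3, which blocks the entry of viruses, at 74.4 to 169 against 8.73 to 29.4 CPM (3.05 ± 0.40). Bst2 (0.92 ± 0.11) and Rtp4 (0.84) followed. Over all genes, the 10 highest ratios belonged to Axl, Ccl5 (3.84 ± 1.90), the complement gene C4b (3.76 ± 0.81), Apoe, Ifi27l2a, Ifitm3, Ifi204 (2.80 ± 0.58), H2-Q6 (2.60 ± 0.39), Lpl and Samd9l (2.53 ± 0.74). All of these but Apoe and Ifi27l2a had means under 20 CPM in HM and were compared through TM alone, so they had to differ. C4b was at 12.5 to 41.6 CPM in TM and 0.726 to 5.60 CPM in HM. The chemokine Ccl5 was at 7.73 to 180 CPM in TM and 0.939 to 6.99 CPM in HM and varied most of these genes. It was found in 3.66% of thinned TM, 0.438% of HM and 76.3% of T cells, in which it was at 5610 CPM. The T cell receptor gene Cd3e had no UMI in TM, and Cd3d had 6 UMIs and Nkg7 had 4 over all TM. Without cells of a doublet score over 0.5 the Ccl5 ratio was 3.52, and with the states of the annotation of all cells it was 2.47.

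The 10 lowest ratios were those of Myo18b (-2.67 ± 1.27), Gm31243 (-1.68 ± 0.45), Khdrbs3 (-1.60 ± 0.67), Tmem44 (-1.54 ± 0.36), the B cell scaffold gene Bank1 (-1.53 ± 0.35), Upk1b (-1.50 ± 0.22), Gprasp2 (-1.48 ± 0.49), Sema4b (-1.43 ± 0.65), the actin cross-linker Actn1 (-1.40 ± 0.55) and the adhesion molecule Pecam1 (-1.33 ± 0.47). None was on the homeostatic list. All of these but Bank1 and Upk1b had means under 20 CPM in TM and were compared through HM alone, so they had to differ.

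The genes of the translation machinery were higher in TM than in HM as a group. Of 82 ribosomal protein genes compared, 81 were higher in TM in all 10 libraries, with a median of 0.81 (0.66 with library size alone), and 2 passed a log2 ratio of 1, Rpsa (1.04 ± 0.08) and Rpl32 (1.01 ± 0.08). Their summed level was 124293 to 150879 CPM in TM and 75910 to 97551 CPM in HM, without overlap, beside 2.7% of all genes compared that were higher without overlap. All 13 translation factors and associated genes were higher in all 10 libraries (median 0.59), among them Tpt1 (0.83 ± 0.07), the elongation factor Eef1a1 (0.79 ± 0.07) and Rack1 (0.86 ± 0.08). All 13 genes of the mitochondrial genome were higher too (median 0.62). In DAM, the ribosomal protein genes summed to 137739 and 137506 CPM in APP/PS1 and Nlrp3KO APP/PS1 mice of 3 months. At 9 months they summed to 144656 and 154516 CPM. TM of these libraries had 127621, 124293, 150310 and 148638 CPM in this order. DAM of the non-diseased libraries had 93116 to 119557 CPM, against 127960 to 150879 CPM in TM. A high level was thus shared with DAM of APP/PS1 mice. The part of the higher ribosomal and mitochondrial share in the other ratios was not tested. With both gene groups left out of the table the Apoe ratio was 3.74 and the P2ry12 ratio was -0.67.

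Ribosomal protein mRNAs are known to begin with a C followed by a run of pyrimidines, the terminal oligopyrimidine tract through which growth signalling controls their translation. RefSeq start sites (GRCm38.p6) were searched for this feature on the strand of the gene, as a C followed by at least 4 C or T, since nearly all of these genes were higher in TM. Start sites on a single chromosome were left out of this search and of the next, so genes on it count as unmatched. Shown are 30 bases, 10 before the annotated start and 20 from it, with the C and its pyrimidine run in capitals.

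Rps18: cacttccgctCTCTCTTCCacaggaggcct

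Rpl35: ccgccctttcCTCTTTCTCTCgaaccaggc

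Rpl38: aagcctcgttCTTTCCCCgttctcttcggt

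Rps15a: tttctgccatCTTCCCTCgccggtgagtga

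They lie at chr17:33955646-33955675 on the minus strand, chr2:39005112-39005141 on the minus strand, chr11:114668570-114668599 on the plus strand and chr7:118116128-118116157 on the minus strand, in this order. Of the 62 ribosomal protein genes matched to the promoter table by symbol (of 82), 14 (22.6%) began this way, against 3.01% of all 27025 genes searched. Of the 8 translation factors matched, 2 did, Rack1 and Fau, and of the 37 matched genes past a log2 ratio of 1, 1 did. A start in the annotation can lie some bases from the start used in these cells, so a gene without the run in this window is not known to lack it.

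Interferon-stimulated promoters often hold a pair of GAAA blocks, and the motif of 2 such blocks with 2 bases of any kind between them was searched on both strands from 250 bases before to 50 bases after the start. It was present in 3.99% of all genes, in 4 of the 37 matched genes past a log2 ratio of 1 (10.8%, Ifitm3, Arhgap15, Tnfsf13b and Fcgr4), in 7 of 62 matched ribosomal protein genes (11.3%), in 1 of 8 matched translation factor genes (12.5%) and in 5 of 8 matched genes of the interferon list (62.5%). In Ifitm3 it begins 2 bases past the annotated start, and the bases around it are shown, at chr7:141010723-141010752 on the minus strand, with the motif in capitals.

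Ifitm3: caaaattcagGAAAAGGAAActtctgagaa

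None of the 9 matched second-stage DAM genes, none of the 17 matched homeostatic genes and 1 of the 7 matched first-stage genes, B2m, held this motif in that window. A match in letters is a description of the sequence, not a bound site.

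Other gene groups differed less. Of 10 immediate early genes compared, 1 of them through TM alone, 4 were higher in TM in all 10 libraries, Egr1 (0.94 ± 0.58), Fos (0.78 ± 0.49), Ier2 (0.70) and Dusp1 (0.60), and the list median was 0.02. Fos was at 4.01 to 81.4 CPM in TM and 3.08 to 48.4 CPM in HM, so it varied more between libraries than between the states. Of 12 inflammasome and NF-kB genes compared, Ccl5 and Casp1 (0.26 ± 0.13) were higher in all 10, Il18 (-0.33 ± 0.20) was lower in all 10, and the median was -0.03. Of these 12, Ccl5 (mean of 3.72 CPM in HM) was compared through TM alone and had to differ, and 2 were compared through HM alone. Il18, a cytokine matured by caspase-1, was at 31.1 to 45.3 CPM in TM and 50.5 to 67.1 CPM in HM. The nuclear RNA Neat1 was higher in TM (1.01 ± 0.24), and Malat1 was slightly lower (-0.19). Of 3 proliferation genes compared, 1 was higher in all 10 libraries (median 0.11).

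Markers of neighbouring cell types were mostly low in TM. The 12 markers of border-associated macrophages summed to 162 to 243 CPM in TM and 259 to 301 CPM in HM, of which Stab1 gave 134 to 202 and 237 to 280 CPM, and to 3382 and 14480 CPM in the BAM and Lyve1+ BAM of the same libraries. Apart from Stab1, some were higher in TM than in HM. Mrc1 was at 5.003 to 19.7 CPM in TM and 3.05 to 6.57 CPM in HM, and Folr2 at 4.46 to 14.9 against 0.361 to 2.02 CPM. In Lyve1+ BAM, Mrc1 was at 2687, Folr2 at 643, Cd163 at 536, Lyve1 at 614 and Apoe at 68063 CPM, whereas Lyve1 and Clec10a had no UMI in TM and Cd163 was at 0.06 CPM. Without cells of a doublet score over 0.5 the Apoe ratio was 3.76. Markers of monocytes summed to 13.6 to 25.9 CPM in TM and 9.32 to 18.4 CPM in HM, higher in TM in all 10 libraries, and to 12224 CPM in the monocytes of these libraries. Of these 9 markers, Ms4a4c was at 4.83 to 15.2 CPM in TM and 2.07 to 4.42 CPM in HM (1.65 ± 0.62, higher in all 10), whereas Ly6c2 had 3 UMIs, Chil3 5 and Hp 2 over all TM. Some genes that were higher in TM were also abundant in monocytes, with Lyz2 at 33295, Ifitm3 at 4019 and Cd52 at 2878 CPM. The part of such cells in the TM values was not tested. Markers of neurons and macroglia summed to 181 to 214 CPM in TM and 212 to 267 CPM in HM.

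**Figure D3:**
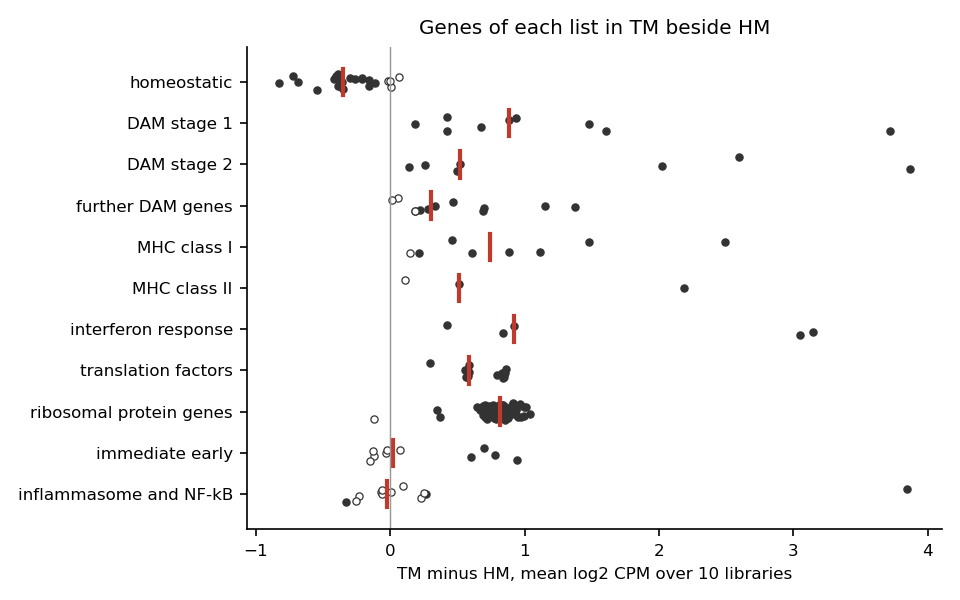
Mean log2 ratio of TM to HM (horizontal axis) for each gene of 11 lists (rows), filled where all 10 libraries have the same sign and open where they do not, with a red bar at the median of the list. The homeostatic genes lie mostly below 0 (median -0.35), the first-stage DAM genes above it (median 0.89) and most ribosomal protein genes in a narrow band around 0.81.

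TM were next set beside DAM. Of 6188 genes with enough CPM, 233 (3.77%) were higher and 62 (1.0%) lower in TM in all 10 libraries, and beyond a log2 ratio of 1 there were 27 (0.436%) and 20 (0.323%), with a median over all genes of 0.09. The 10 lowest ratios of TM to DAM included H2-Aa (-5.27 ± 1.39), H2-Eb1 (-5.18 ± 1.80), Spp1 (-5.10 ± 2.30), H2-Ab1 (-3.73 ± 1.18), Cd74 (-3.14 ± 0.95), Cox6a2 (-2.65 ± 0.95), Cst7 (-2.63 ± 1.76) and Ank (-2.50 ± 1.24). The highest included Ccl5 (3.17 ± 2.49), the transcription factor Klf2 (3.11 ± 1.96), Arhgap15 (2.40 ± 1.61), Igsf6 (2.36 ± 2.32), Emp3 (2.13 ± 1.12) and the creatine synthesis gene Gatm (1.83 ± 1.08). The filter of 20 CPM in TM or DAM kept H2-Aa, H2-Eb1, Spp1, H2-Ab1 and Cox6a2 through DAM alone. It kept Ccl5 and Arhgap15 through TM alone. These genes had to differ, and the counts depend in part on this filter. Klf2, a factor linked to quiescence in blood and vessel cells, was at 26.8 to 172 CPM in TM, 5.81 to 47.6 CPM in HM and 0 to 68.3 CPM in DAM. These ranges overlap, but within each of the 10 libraries Klf2 was higher in TM than in HM and in DAM. It was at 491 CPM in monocytes and 240 CPM in BAM. Emp3, Igsf6 and Arhgap15 were likewise above their TM levels there, at 859, 322 and 156 CPM in monocytes and 573, 142 and 167 CPM in BAM, beside means of 149, 104 and 37.9 CPM in TM. The Ccl5 ratio to DAM was -0.98 with the states of the annotation of all cells.

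The distance from TM to DAM differed between genotypes, since DAM of mice without amyloid carried less of the DAM programme. In the 4 APP/PS1 libraries Apoe was at 4943 to 12968 CPM in DAM and in the 6 non-diseased libraries at 803 to 4392 CPM, whereas TM stayed between 3041 and 5931 CPM in all 10. The Apoe ratio of TM to DAM was accordingly -1.03 on average in APP/PS1 libraries, with TM below DAM in all 4, and 0.72 in non-diseased libraries, with TM above DAM in 5 of 6. Lyz2 showed the same order (-0.57 and 1.12, above DAM in 6 of 6 non-diseased libraries). Cst7 was below DAM in every library (-4.57 and -1.33). In DAM it was at 848 to 2785 CPM in APP/PS1 and 74.0 to 205 CPM in non-diseased libraries, and in TM at 28.1, 95.5, 117 and 122 CPM in the APP/PS1 libraries and 27.5 to 65.7 CPM in the others. Lpl in DAM was at 348 to 784 CPM and 6.83 to 96.7 CPM, and its ratio to DAM was -3.02 and 0.95. P2ry12 in TM was below DAM in 3 of 4 APP/PS1 libraries (-0.17) and in all 6 non-diseased libraries (-0.56), so TM were not intermediate for this gene in 9 of 10 libraries.

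Within the APP/PS1 libraries, the place of TM between HM and DAM was written as the TM to HM log2 difference divided by the DAM to HM log2 difference, for genes with at least 1 in the latter. It had a median of 0.69 over 9 first-stage genes (0.16 to 1.11), of 0.34 over 10 second-stage genes (0.19 to 0.69), of 0.25 over 18 further DAM genes and of 0.41 over 10 interferon genes. Among the genes of both stages, H2-D1 (1.11), B2m (0.82), Apoe (0.77) and Lyz2 (0.72) were closest to or past the DAM level. Ctsd (0.16), Ccl6 (0.19), Trem2 (0.20), Csf1 (0.20), Cd9 (0.28) and Cst7 (0.31) of these genes were closest to the HM level. Over all 10 libraries only 3 first-stage genes and 7 second-stage genes had a DAM to HM difference of that size, with medians of 1.12 and 0.53, which were 0.84 and 0.27 with the states of the annotation of all cells. These medians are descriptions of lists known from DAM, and no test was made of the difference between them.

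**Figure D4:**
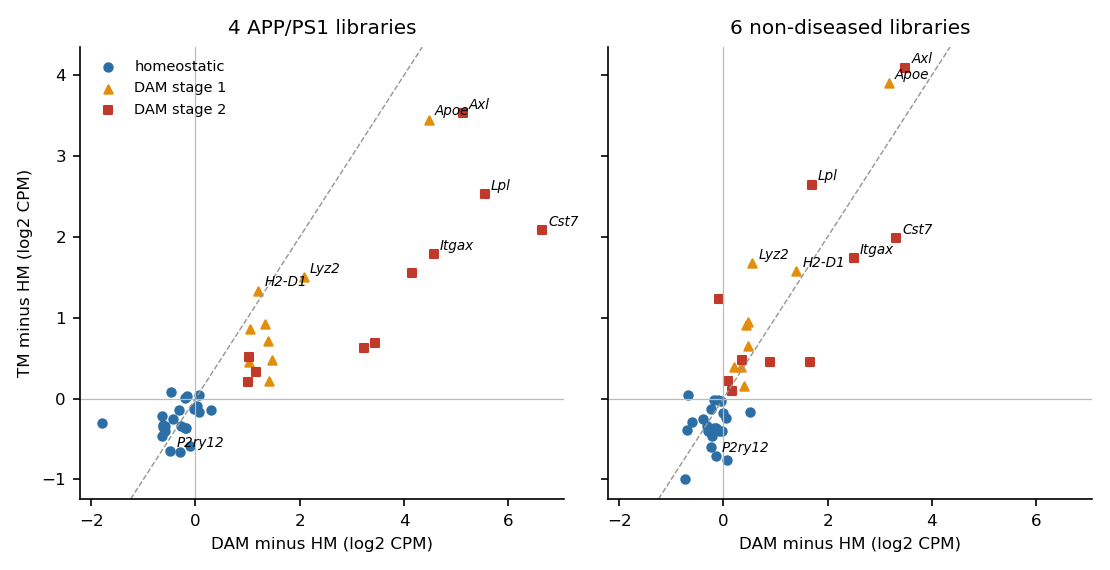
Mean log2 ratio of TM to HM (vertical axis) against that of DAM to HM (horizontal axis) for homeostatic (blue circles), first-stage (orange triangles) and second-stage genes (red squares), with the 4 APP/PS1 libraries in the left panel, the 6 non-diseased libraries in the right panel and a dashed line where both are equal. In APP/PS1 libraries second-stage genes such as Cst7 and Lpl lie far below the line, while Apoe and H2-D1 lie nearer to it.

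The libraries were then compared between genotypes within TM, on the UMIs summed over TM of each library, with the quasi-likelihood test of edgeR. The pair entered as a block, and p-values were adjusted over all genes tested by the Benjamini-Hochberg method. Called genes had an adjusted p under 0.05 and a log2 fold change of at least 1. The states were drawn from these same transcripts. The label can therefore limit how far Apoe, P2ry12 and other genes of the states differ between libraries within TM. It can also shape their differences between states in the tests below, and its part in them was not tested. Few genes of TM passed between APP/PS1 and non-diseased mice. Of 8339 genes, 1 was called (0.012%), 0 higher (0.0%) and 1 lower (0.012%), and 4 had an adjusted p under 0.05 (0.048%), 2 higher (0.024%) and 2 lower (0.024%). At an unadjusted p under 0.05 there were 414. DESeq2 called 0 genes, with 1 past the adjusted p and 38 at an unadjusted p under 0.05.

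Cxcl13, a chemokine that attracts B cells (chr5:95956951-95961068, GRCm38), was the gene called. In non-diseased TM it was at 21.6, 17.5 and 15.7 CPM in WT mice of 3, 6 and 9 months and at 1.38, 2.34 and 70.4 CPM in Nlrp3KO mice of these ages. In APP/PS1 TM it was at 0 CPM in both 3-month libraries, at 1.78 CPM in APP/PS1 and at 14.5 CPM in Nlrp3KO APP/PS1 mice of 9 months. The log2 fold change was -2.83 (SE 0.36, edgeR adjusted p = 8.3e-05, lower in 4 of 4 pairs). The ranges of both groups overlap, and Cxcl13 was not called, or fell under the filter on low counts, in DESeq2, without cells of a doublet score over 0.5, with age and Nlrp3 genotype in place of the pair, with the cells of both annotations and without the 9-month Nlrp3KO pair.

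Fcrls was higher in TM of APP/PS1 mice, at 1298 to 1589 CPM in the 4 libraries against 900 to 1182 CPM in the 6 non-diseased libraries, without overlap as in 0.468% of genes tested (log2 fold change 0.46, SE 0.07, edgeR adjusted p = 0.0012, higher in 4 of 4 pairs). The cystatin Cst7 was higher as well (0.86, SE 0.15, edgeR adjusted p = 0.0066), in 3 of 4 pairs, and the B cell and myeloid receptor Cd72 was lower (-0.84, SE 0.17, edgeR adjusted p = 0.047) in 4 of 4. All 3 missed the threshold in some alternatives, among them the fit without the 3-month and that without the 9-month Nlrp3KO pair, and with age and Nlrp3 genotype in place of the pair or the cells of both annotations. Apoe (0.03, SE 0.09) and P2ry12 (0.06, SE 0.07) did not pass the test (edgeR adjusted p = 0.998 for both), and both were higher in 2 of 4 pairs.

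By list, 1 of 23 homeostatic genes tested (Fcrls) and 1 of 9 second-stage genes (Cst7) passed the adjusted p, both upward, and none of 9 first-stage, 15 further DAM, 8 class I, 13 translation or 8 interferon genes did. Without a filter on low counts, and without the 9-month Nlrp3WT pair, the second-stage gene Ccl6 passed too (0.41 in both, edgeR adjusted p = 0.017 and 0.035). The median log2 fold change was 0.07 for homeostatic, 0.05 for first-stage and 0.16 for second-stage genes, beside 0.01 for all genes. For comparison, 143 of 5293 genes (2.7%) were called between the same libraries in DAM and 0 of 11553 (0.0%) in HM, where 512 had an unadjusted p under 0.05. In DAM the log2 fold changes were 1.77 for Apoe (SE 0.28, edgeR adjusted p = 0.00032), 4.11 for Cst7, 4.66 for Lpl and 1.71 for Lyz2. In HM they were 0.48 for Apoe (edgeR adjusted p = 0.49) and 0.79 for Cst7. These comparisons use the same libraries as the one in TM.

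**Figure D5:**
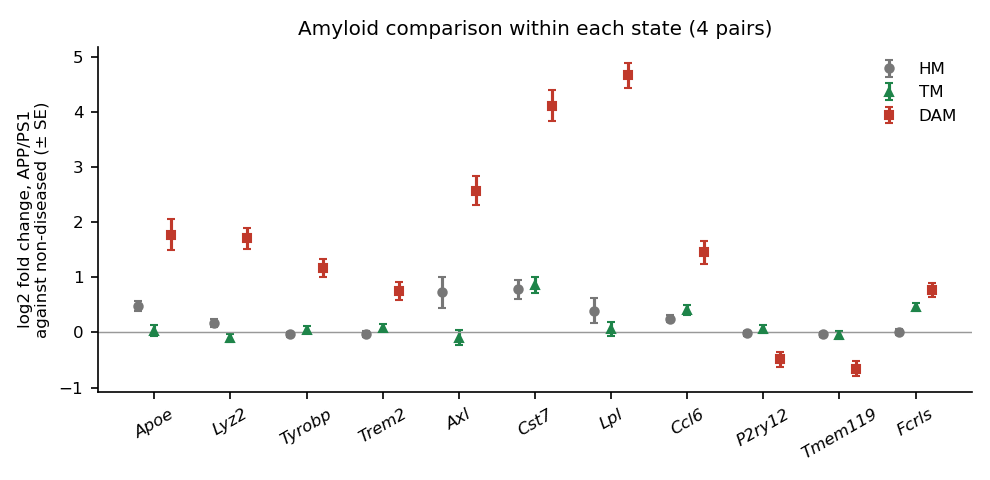
Log2 fold change between APP/PS1 and non-diseased libraries with its SE as a bar (vertical axis) for 11 genes in HM (grey circles), TM (green triangles) and DAM (red squares). In TM, Apoe is at 0.03, Fcrls at 0.46 and Cst7 at 0.86, whereas Apoe, Lyz2, Cst7 and Lpl lie between 1.71 and 4.66 in DAM.

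The difference of these amyloid effects was tested itself, in a fit over both states with the library as a block. Against DAM, 132 of 8798 genes were called (1.5%), 20 with a higher (0.227%) and 112 with a lower (1.27%) effect in TM, and 343 passed the adjusted p alone (3.9%), 54 higher (0.614%) and 289 lower (3.28%). DESeq2 called 47. All 9 second-stage genes tested had a lower effect in TM at an adjusted p under 0.05, as had 7 of 9 first-stage genes, 16 of 19 further DAM genes and 8 of 13 translation factors, while 4 of 23 homeostatic genes had a higher effect. DAM were sparse in the non-diseased libraries, and the lists were made from DAM of amyloid models, so the counts describe DAM as much as TM.

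Among the first- and second-stage genes, the largest differences were those of Lpl (-4.63, SE 0.28, edgeR adjusted p = 1.2e-11), Cst7 (-3.37, SE 0.28, edgeR adjusted p = 8.9e-09) and Axl (-2.67, SE 0.41, edgeR adjusted p = 0.00021), each lower in 4 of 4 pairs. Lyz2 (-1.77, SE 0.31), Apoe (-1.71, SE 0.35, edgeR adjusted p = 0.0026), Tyrobp (-1.15, SE 0.13) and Trem2 (-0.69, SE 0.14) were also lower, again in 4 of 4 pairs. The Apoe difference did not pass in DESeq2 or with the cells of both annotations. Of the homeostatic genes, Crybb1 (1.14, SE 0.20), Rhob (0.61), Tmem119 (0.59, SE 0.17) and Cx3cr1 (0.50) had the higher effect in TM.

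Some of the genes with the largest fitted differences were nearly silent in one of the groups, where a fitted fold change has no fixed size. Ch25h, the enzyme that makes 25-hydroxycholesterol, was at 72.9 to 110 CPM in DAM of the 4 APP/PS1 libraries, at 0 in DAM of 5 of the 6 non-diseased libraries and at no more than 3.70 CPM in TM. Etl4 was at 10.2 to 48.3 CPM in DAM of APP/PS1 mice, at 0 in DAM of all 6 non-diseased libraries and at no more than 5.55 CPM in TM. Baiap2l2 was at 54.2 to 115 CPM in DAM of APP/PS1 mice and at no more than 2.78 CPM in TM. In TM of APP/PS1 mice these 3 transcripts were at no more than 3.57 CPM.

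Against HM, the amyloid effect differed in 5 of 10303 genes (0.0485%), none higher (0.0%) and 5 lower (0.0485%) in TM. At the adjusted p alone there were 19 (0.184%), 2 higher (0.0194%) and 17 lower (0.165%). DESeq2 called 0, with 1 past the adjusted p and 251 at an unadjusted p under 0.05, where edgeR had 589. The 5 called genes were Cxcl13 (-4.70, SE 1.01), Ccl5 (-2.36, SE 0.31, edgeR adjusted p = 6.3e-09), Gm26870 (-1.74, SE 0.43), Samd9l (-1.27, SE 0.30) and the chemokine receptor Ccr1 (-1.10, SE 0.24). The Gm26870 effect was lower in only 2 of 4 pairs. With the cells of both annotations 1 gene was called and 4 passed the adjusted p.

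Ccl5 in TM was at 180, 57.4, 19.2 and 97.3 CPM in WT, Nlrp3KO, APP/PS1 and Nlrp3KO APP/PS1 mice of 3 months, at 53.2 and 38.7 CPM in WT and Nlrp3KO mice of 6 months and at 93.4, 72.3, 21.4 and 7.73 CPM in the 9-month libraries in the order given for 3 months. The value of 97.3 CPM in Nlrp3KO APP/PS1 mice lies within the non-diseased range, and the other 3 APP/PS1 libraries lie below it. Without the 3-month Nlrp3WT pair the Ccl5 difference no longer passed (-1.19). Within TM alone the log2 fold change of Ccl5 between APP/PS1 and non-diseased mice was -1.38 (edgeR adjusted p = 0.18, lower in 3 of 4 pairs), and it passed without a filter on low counts and without the 3-month Nlrp3KO or the 9-month Nlrp3WT pair.

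First-stage and class I genes were among the 17 with a lower effect in TM than in HM. Apoe differed by -0.43 (SE 0.06, edgeR adjusted p = 1.0e-07), lower in 3 of 4 pairs with single pairs between -1.04 and 0.05, and did not pass in DESeq2 or with the cells of both annotations (-0.18). H2-D1 differed by -0.28 and Lyz2 by -0.26. With these, 3 of 9 first-stage genes had a lower effect in TM, as had 3 of 8 class I genes (H2-D1, H2-K1 and H2-Q7) and 2 of 10 interferon genes (Ifi27l2a and Ifitm3). Of the genes named here, H2-D1, Lyz2, H2-K1, H2-Q7, Ifitm3 and Fcrls missed the threshold in at least one alternative, with a highest adjusted p of 0.12 for Fcrls, 0.46 for H2-Q7 and above these for the others, whereas Ifi27l2a passed in each (highest edgeR or DESeq2 adjusted p = 3.5e-05). The interferon list had a median of -0.66, with 0 of 10 genes above 0, beside a median of 0.01 for all genes. Ifi27l2a differed by -0.66 (SE 0.08, edgeR adjusted p = 9.3e-10, lower in 4 of 4 pairs). Within TM its log2 fold change was 0.28 (edgeR adjusted p = 0.65, higher in 3 of 4 pairs). Within HM it was 0.91 (edgeR adjusted p = 0.13), so the estimate in TM was a smaller rise, not a fall. That of Ifitm3 was 0.12 in TM and 0.80 in HM. Fcrls, whose effect was higher in TM (0.45, SE 0.05, edgeR adjusted p = 5.3e-14, 4 of 4 pairs), had a log2 fold change of 0.01 in HM. In DAM of the same libraries Fcrls had 0.77 (SE 0.13, edgeR adjusted p = 0.000665), so its rise was not particular to TM.

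Deletion of Nlrp3 was visible in TM by the gene itself. The 5 Nlrp3WT libraries held 204 Nlrp3 UMIs among 6401383 in TM (24.0 to 43.6 CPM) and the 5 Nlrp3KO libraries held 0 among 6942749, so Nlrp3 was at least 73.8-fold lower against a floor of 3 counts over the group. Of 8552 genes, 4 were called between Nlrp3KO and Nlrp3WT TM (0.0468%), 1 higher (0.0117%) and 3 lower (0.0351%), and 5 passed the adjusted p (0.0585%), 2 higher (0.0234%) and 3 lower (0.0351%), with 426 at an unadjusted p under 0.05. DESeq2 called 4.

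Pttg1, which holds sister chromatids together until anaphase, was at 32.4 to 50.0 CPM in Nlrp3WT and 2.34 to 8.96 CPM in Nlrp3KO TM (log2 fold change -2.77, SE 0.26, edgeR adjusted p = 1.6e-05, lower in 5 of 5 pairs). The histone gene Hist3h2a was at 54.4 to 85.7 against 20.3 to 38.1 CPM (-1.27, SE 0.13, edgeR adjusted p = 3.1e-05, 5 of 5 pairs). Gm8797 was at 4.01 to 37.9 CPM in Nlrp3WT and 69.5 to 118 CPM in Nlrp3KO TM (2.46, SE 0.33, edgeR adjusted p = 0.0016, 5 of 5 pairs), and the adaptor gene Grap at 53.8 to 86.9 against 93.7 to 118 CPM (0.72, SE 0.12, edgeR adjusted p = 0.015, 5 of 5 pairs). None of these 4 genes, which the test had chosen, overlapped between the groups, beside 0.374% of all genes tested that were lower and 0.246% that were higher in Nlrp3KO TM without overlap. On GRCm38, Nlrp3 (chr11:59541568-59566956), Hist3h2a (chr11:58954685-58956830), Grap (chr11:61653265-61672784) and Pttg1 (chr11:43420250-43426251) all lie on chromosome 11, and Gm8797 lies at chr3:5750806-5751295. All are annotated as protein-coding genes.

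The TM programme itself did not pass this test. None of 23 homeostatic, 9 first-stage, 9 second-stage, 8 class I or 13 translation genes had an adjusted p under 0.05 between Nlrp3 genotypes, and the medians of these lists lay between -0.03 and 0.07. Of 9 interferon genes tested, none passed either, with 3 above 0 and a median of -0.08. Without a filter on low counts, the first-stage gene Timp2 (0.54, higher in 5 of 5 pairs) passed, with an edgeR adjusted p of 0.0038 where it was 0.84 with the filter. Apoe (-0.02, SE 0.11, edgeR adjusted p = 0.999), P2ry12 (0.02, SE 0.06, edgeR adjusted p = 0.998) and Trem2 (0.00, SE 0.06) were among the genes that did not pass. Among 14 inflammasome and NF-kB genes tested, Nlrp3 was the gene that passed, with Casp1 at 0.00 (SE 0.11), Pycard at -0.01 (SE 0.07) and Il18 at -0.20 (SE 0.12).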

How the data were processed

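The labels and the study's methods name Cell Ranger with mm10 for the reads, and cells were filtered and annotated by the authors. The authors deposited UMI counts per gene and cell without normalization (31053 genes, 52369 cells), the percent of mitochondrial UMIs, the fraction of ribosomal protein UMIs, and a doublet score. In the matrix, 6897 cells of 2 sample names without a matching label were not used. Counts of TM, HM and DAM were summed per library. Fits used edgeR 4.0.16 (filterByExpr, TMM, quasi-likelihood F test) in R 4.3.3, with 3, 4, 6 and 6 residual degrees of freedom for amyloid, Nlrp3 and the interactions with HM and DAM. The study's methods call the mice littermates, but which libraries share a litter is not stated. With 1 library per group, the spread comes from what the blocks leave unexplained, and edgeR moderates it over genes. The fits of the interactions had terms for library and state but none for the pair. A printed SE can thus be smaller than the spread of a gene over its own pairs. For amyloid in TM, Apoe ran from -0.396 to 0.554 over the pairs beside an SE of 0.09. On simulated data, log2 fold changes of 2 were recovered in 93.5, 95, 91.5 and 80.5% of changed genes in these fits (8339, 8552, 10303 and 8798 genes). These counts were drawn from the means and dispersions that edgeR had fitted. The recovery thus does not cover smaller changes or a spread over pairs beyond that model.

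The members and gene lists were chosen with earlier results of these data known. Named were Apoe, P2ry12, list members, the 10 highest and 10 lowest ratios of TM to HM and the 10 largest called fold changes of a test. Fcrls, Cst7, Cd72, Grap, Klf2 and the genes named for TM against DAM were also named after their values were seen. Values of some list members and called genes are not reported here. Alternatives were DESeq2 1.42.0, other scalings, no filter on low counts, a prior count of 0.5, thinning, cells without a high doublet score, additive terms, the other annotation and leaving out pairs or libraries. Those with the other annotation and with APP/PS1 libraries alone were chosen after seeing the data.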

Additional observations from a re-analysis of the deposited data

Results flagged for a closer look

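In 6 of 42 groups of TM libraries a library stood far from the others of its group, and the 95% limit of Dixon's test used here is passed by chance in about 1 in 20 groups. In Nlrp3KO mice of 9 months, Tmem119 was at 968 CPM (1144 to 1208 in the other non-diseased libraries), Trem2 at 2626 CPM (3008 to 3173) and Cxcl13 at 70.4 CPM (1.38 to 21.6). Ifitm3 was at 169 CPM in WT mice of 9 months (74.4 to 103 in the others). Among the APP/PS1 libraries, Ccl5 was at 97.3 CPM in Nlrp3KO APP/PS1 mice of 3 months (7.73 to 21.4 in the others) and Cxcl13 at 14.5 CPM in those of 9 months (0 to 1.78).

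The amyloid effect in TM differed from that in DAM, as a difference of log2 fold changes with an edgeR adjusted p under 0.05, for Apoe (-1.71), Axl (-2.67), Cst7 (-3.37), Lpl (-4.63), Lyz2 (-1.77), Trem2 (-0.69), Tyrobp (-1.15), Crybb1 (1.14) and Tmem119 (0.59). Among the 10 largest were also Adamts1 (-5.05), Baiap2l2 (-5.93), Ccl4 (-5.70), Gm1673 (-3.92), Ptchd1 (-4.71) and Wfdc17 (-4.11). The values for Ch25h (-10.67) and Etl4 (-8.63) depend on how 0 counts in non-diseased DAM are treated and are no bound. Without the 9-month Nlrp3KO pair, Adamts1 (-7.32), Baiap2l2 (-4.49), Ptchd1 (-3.38), Trem2 (-0.67) and Tmem119 (0.54) did not pass.

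The amyloid effect in TM differed from that in HM for Apoe (-0.43), Ccl5 (-2.36), Ccr1 (-1.10), Cxcl13 (-4.70), Fcrls (0.45), Gm26870 (-1.74), H2-D1 (-0.28), Ifi27l2a (-0.66) and Samd9l (-1.27). Of these, Ccl5, Ccr1, Cxcl13, Gm26870 and Samd9l lost the threshold without 1 or 2 of the 4 pairs.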

How the results depend on the processing

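The labels carry no replicate numbers, so pairs were matched by age and genotype and no fit with a replicate number as block was made. Genes called for amyloid in TM (1) became 0 with DESeq2, without cells of a doublet score over 0.5, with additive terms and with the cells of both annotations, 8 without a filter on low counts, 4 by the adjusted p alone, and 0 to 2 without a pair (0 without the 9-month Nlrp3KO pair). Genes called for Nlrp3 (4) became 9 without a filter, and 4 to 5 without a pair. For the amyloid effect against HM (5), DESeq2 called 0, cells without high doublet scores 3, cells of both annotations 1, the adjusted p alone 19, and 3 to 7 were called without a pair. Against DAM (132), these were 47 with DESeq2, 343 by the adjusted p alone and 90 to 149 without a pair. Those with a higher effect in TM (20 of the 132) were 37 of 174 with a state term for each pair, 8 of 91 without high doublet scores and 4 of 47 with DESeq2.

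Genes past a log2 ratio of 1 over HM (49) became 89 with the cells of both annotations, and those below HM (16) became 26 with library size alone, with 46 to 54 and 15 to 18 without a library. Over DAM (27) they became 62 in thinned cells, 44 with the cells of both annotations and 12 with the annotation of all cells, and below DAM (20) 9 in thinned cells and 44 with the annotation of all cells, with 25 to 39 and 18 to 25 without a library. The first-stage position (1.12) was 0.836 with that annotation and 0.692 in APP/PS1 libraries alone, and the second-stage position (0.53) was 0.265 with that annotation. Without thinning, 62.4% of TM held Apoe, 99.3% P2ry12, 61.9% both and 15.5% Cst7.

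The sign of some values turned. The amyloid and Nlrp3 effects among them passed no test, and the ratios between states carry none. For amyloid, Apoe was below 0 without the 3-month Nlrp3WT and without the 9-month Nlrp3KO pair (range -0.139 to 0.182). For Nlrp3, Apoe was 0.152 and P2ry12 -0.0176 with the cells of both annotations, and without a pair they lay between -0.163 and 0.113 and between -0.0137 and 0.0590. The TM share between Nlrp3 genotypes was 0.213 points without the 3-month APP/PS1 pair (range -0.653 to 0.213), and between APP/PS1 and non-diseased libraries it was 1.42 to 2.71. The Trem2 ratio to HM was -0.0212 with library size alone and the Ccl5 ratio to DAM (3.17) -0.980 with the annotation of all cells. Over the alternatives the ratio to DAM ran from -0.530 to 0.228 for Apoe, -0.213 to 0.715 for Lyz2, -1.05 to 0.185 for Axl and -0.249 to 0.215 for H2-D1. The cause of these changes was not tested. The DAM of a library held as few as 160958 UMIs in sum, which limits the precision of low genes there.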
